A study of Mus musculus with 8 samples.

Results

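The genes described here are the 9 members of the Jak and Stat families *Jak1*, *Jak2*, *Jak3*, *Stat2*, *Stat3*, *Stat4*, *Stat5a*, *Stat5b* and *Stat6*. They were found by symbol among the 24303 genes of an RNA-Seq table of mouse CD8+ T cells, and all 9 were listed above 0 in every library. The cells were naive P14 cells, whose transgenic T cell receptor recognizes an LCMV peptide called GP33, taken from the spleens of adult mice of either sex and activated for 2 days with plate-bound anti-CD3 and anti-CD28. Effector cells were collected on day 7 and 3 other conditions on day 19. Acute-2d cells were kept without peptide after activation. Acute-7d cells received GP33 until day 7 and were then rested in medium without it. T_Dysf cells, the model of terminal dysfunction, received GP33 until day 19 together with TGF-β1 from day 7, so the effects of peptide and of TGF-β1 in T_Dysf cells cannot be told apart. All cultures held IL-2, and IL-15 was added after activation, both of which signal through these genes. The peptide schedule of the Effector cells is not given by the labels, and their day of collection differs from that of the other conditions. Each condition has 2 libraries made from FACS-purified cells. The study names them biological replicates. Whether each pair came from separate mice or from separate cultures is not given in the sources used here. Sex-linked genes, described below, bear on this for Acute-7d.

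A Jak is a tyrosine kinase bound to the inner side of a cytokine receptor. When a cytokine joins the receptor chains, the Jaks phosphorylate each other and the receptor, Stat proteins dock on the receptor and are phosphorylated in turn, and pairs of Stats enter the nucleus and bind DNA. Jak1 and Jak3 serve the receptors that share the common gamma chain, such as those of IL-2, IL-7, IL-15 and IL-21, and Jak3 is bound by that chain itself. Jak2 serves the receptors of interferon gamma, IL-12 and others. Stat5a and Stat5b act after IL-2, IL-7 and IL-15, Stat3 after IL-6, IL-10, IL-21 and IL-27, Stat4 after IL-12, Stat6 after IL-4, and Stat2 after type I interferon as part of the complex with Irf9. In CD8+ T cells these signals shape survival, effector function and memory.

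The worth of 1 read was estimated as the most frequent small value of each library. By that estimate the libraries held 19381799 to 24856512 reads on genes, and 3 reads were worth 2.59 to 3.35 normalized counts. Counting error was thus small for genes at these levels. Both Effector libraries and replicate 1 of Acute-7d have names with the prefix RESUB, and they stood apart from the other 5. *Xist* was between 53.5 and 115 normalized counts in these 3 and between 21871 and 30427 in the other 5, and *Kdm5d* of the Y chromosome was between 789 and 1223 in the 3 and at most 3.45 in the other 5. The comparison of Effector with T_Dysf or Acute-2d therefore cannot be told apart from this split, while Acute-7d has a library on each side of it. The Acute-7d libraries thus differed in *Xist* and in Y-linked genes, as cells from mice of different sex do. A term for the split in a fit rests on the Acute-7d pair alone. For T_Dysf against Acute-7d, such a fit gives the log2 changes of the fit without Acute-7d replicate 1. The 7 markers of T cell identity were above 3 reads, and the 3 markers of CD4 T cells summed to between 1057 and 1636 normalized counts, nearly all of it *Zbtb7b*, with *Cd4* at most 13.0 and *Foxp3* at most 49.5. The 7 markers summed to between 136710 and 141530 in T_Dysf and between 71204 and 85879 in the other conditions. Summed markers of B cells were at most 178, of erythroid cells at most 42.6 and of myeloid cells at most 743 normalized counts. The dendritic cell markers summed to 3516 to 3697 in T_Dysf and 398 to 1442 elsewhere, mostly through *Itgax*. Of the other dendritic cell markers measured, *Xcr1* was at 391 and 300 in T_Dysf and between 101 and 546 elsewhere, and *Siglech* and *Clec9a* were at most 3.03. The part of such cells in the results was not tested. The natural killer cell markers summed to 1303 to 4559, mostly through *Eomes* (828 to 3510) and *Klrb1c* (243 to 1384), with *Ncr1* at most 105. *Tyrobp* was at 229.6 and 208.2 in T_Dysf and at most 50.5 elsewhere. In such bulk samples, fewer cells of a type and less RNA per cell cannot be told apart.

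Positions are those of GENCODE vM21 for GRCm38, the assembly also called mm10. Several of the genes are neighbours. *Stat5b* (chr11:100780731-100850724, minus strand), *Stat5a* (chr11:100859351-100885169, plus strand) and *Stat3* (chr11:100885098-100939540, minus strand) lie next to each other. The gap between *Stat5b* and *Stat5a* is 8626 bases, and *Stat5a* and *Stat3* run towards each other and overlap by 72 bases at their 3′ ends. Whether the counting used strand is not given in the sources used here, so reads in that overlap cannot be told apart. *Stat6* (chr10:127642986-127660957) and *Stat2* (chr10:128270559-128292849) are both on the plus strand of chromosome 10, with 26 coding genes between them. *Stat4* is at chr1:51987148-52107189 (plus), *Jak1* at chr4:101152367-101265282 (minus), *Jak2* at chr19:29251828-29313080 (plus) and *Jak3* at chr8:71676296-71690575 (plus).

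*Stat5a* and *Stat5b* are close copies, which bears on how far their counts are separate. Their coding sequences shared 1 identical run of 324 bases, from coding base 571 to 894 of both. Of all stretches of 100 bases in the coding sequence, 11.6% of those of *Stat5a* and 11.7% of those of *Stat5b* were found unchanged in the other gene, and at 50 bases the shares were 26.0% and 26.3%. No such stretch of 50, 100 or 150 bases was shared between any other 2 of the 9 genes. How reads that fit both genes were assigned is not given in the sources used here, so the split between *Stat5a* and *Stat5b* is uncertain. The shares above are of coding sequence only, while the exons span 3968 bases in *Stat5a* and 5539 in *Stat5b*. They therefore do not measure how much of the counts is affected. The last 30 bases of the shared run and the 90 bases after it show how few positions separate the pair, with the 2 bases that differ in capitals (coding bases 865 to 984, from the GENCODE vM21 transcripts, 5′ to 3′).
Stat5a: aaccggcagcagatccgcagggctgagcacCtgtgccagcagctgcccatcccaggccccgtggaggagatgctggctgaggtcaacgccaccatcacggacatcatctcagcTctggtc
Stat5b: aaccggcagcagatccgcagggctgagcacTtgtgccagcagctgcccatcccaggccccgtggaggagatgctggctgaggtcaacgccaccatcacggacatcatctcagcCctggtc

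Stat genes can be targets of Stats, so the 250 bases before the start of each gene were searched for the letters that Stat dimers bind, TTCNNNGAA and, for Stat6, the same letters with 1 more base between TTC and GAA. Both read the same on either strand, and no stretch can match both from the same first base. RefSeq lists 12 promoters for the 9 genes. None held TTCNNNGAA, which 7.02% of all 32851 promoters did, and 1 held the wider motif, against 5.85% of all. That promoter was of *Stat2*, the interferon gene of the set. It is shown here because it was the one with a match, in capitals, which begins 210 bases before the start of the gene (RefSeq, GRCm38.p6, chr10:128270248-128270497, plus strand).
Stat2 promoter: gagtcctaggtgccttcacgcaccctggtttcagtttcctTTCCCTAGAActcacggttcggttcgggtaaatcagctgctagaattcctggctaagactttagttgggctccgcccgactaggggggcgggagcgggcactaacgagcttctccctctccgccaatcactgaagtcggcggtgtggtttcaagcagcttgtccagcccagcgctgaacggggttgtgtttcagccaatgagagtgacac
The interferon-stimulated response element, searched on both strands after the sequences had been seen, was in 0.222% of all promoters and in none of these 12. A match is a description of letters, and no match says only that they are not in this window.

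All 9 genes were abundant. By their mean over the libraries they ranked between 178 (*Jak1*) and 3348 (*Stat5a*) of the 24303 genes, which puts *Stat5a* at percentile 86.2 and the others higher. Levels between genes were compared per kilobase of exon. On that scale *Jak3* (2840 normalized counts per kb as the mean of all libraries) and *Jak1* (2838) were level with each other and above the rest. *Stat6* (1226), *Stat4* (970.1) and *Stat3* (868.8) followed, then *Jak2* (642.4) and *Stat5b* (587.1), and *Stat2* (393.6) and *Stat5a* (367.1) were lowest. The order was the same with the length of the longest transcript. *Jak3* ran from 1639 to 3913 per kb over the libraries and *Jak1* from 1854 to 3427. The libraries of every 2 neighbours in this order overlapped except those of *Jak1* and *Stat6*, which was at most 1353.

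**Figure D1:**
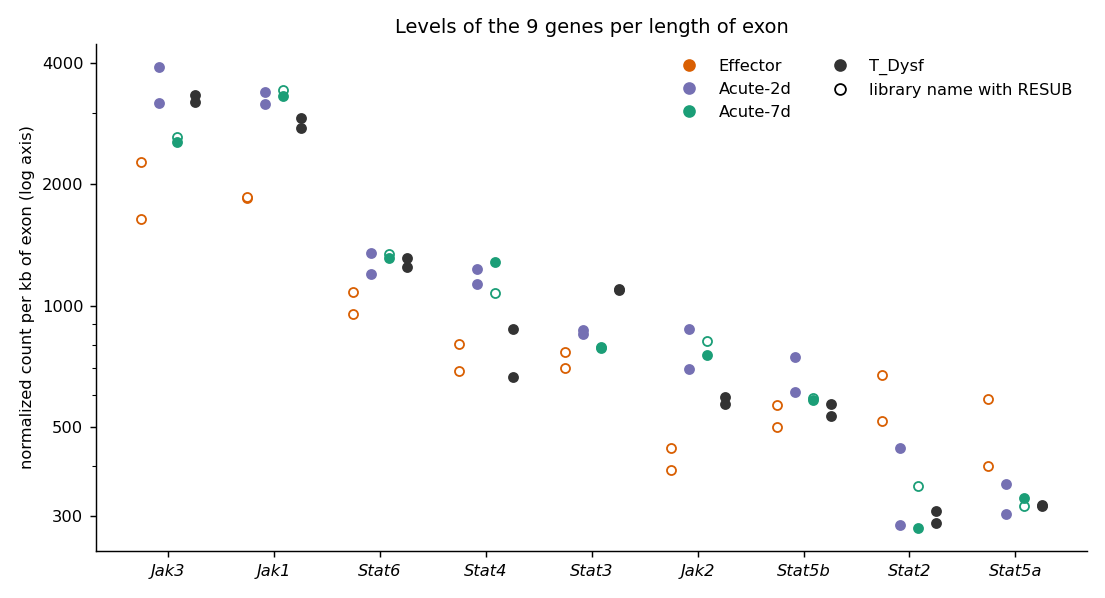
Normalized count per kilobase of exon (log axis) of each gene in each library, coloured by condition, with open points for the RESUB libraries. *Jak3* and *Jak1* stood between 1639 and 3913 in all libraries, and *Stat2* and *Stat5a* between 280.4 and 671.0.

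The 3 kinases were lowest in Effector cells. *Jak1* was at 14356 and 13531 normalized counts in the T_Dysf libraries, 9095 and 9112 in Effector, 16811 and 16234 in Acute-7d and 15572 and 16670 in Acute-2d. The T_Dysf libraries lay between the Effector and the Acute libraries without overlap on either side. *Jak2*, the kinase of the interferon gamma and IL-12 receptors, was at 2981 and 2868 in T_Dysf, 1959 and 2227 in Effector, 4110 and 3801 in Acute-7d and 4409 and 3493 in Acute-2d. As for *Jak1*, the Effector libraries were lowest, those of T_Dysf came next, and those of both Acute conditions were highest. *Jak3*, the kinase of the common gamma chain, was at 14902 and 14301 in T_Dysf, 10135 and 7317 in Effector, 11715 and 11376 in Acute-7d and 14255 and 17475 in Acute-2d. T_Dysf and Acute-2d overlapped for *Jak3*, and Acute-7d lay below both and above Effector.

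Among the Stats, *Stat3* alone was highest in T_Dysf cells. *Stat3* was at 6866 and 6802 normalized counts in T_Dysf, 5301 and 5405 in Acute-2d, 4909 and 4877 in Acute-7d, and 4349 and 4778 in Effector. The 2 T_Dysf libraries differed by 0.66% of their mean (as SD) and lay above all 6 others. *Stat4*, the Stat of the IL-12 receptor, was at 2753 and 2093 in T_Dysf and 2526 and 2167 in Effector, and at 3569 and 3890 in Acute-2d and 3392 and 4040 in Acute-7d. T_Dysf and Effector overlapped, as did Acute-2d and Acute-7d, and each library of the first pair was below each of the second. *Stat6*, the Stat of IL-4, was at 4956 and 4716 in T_Dysf, 3603 and 4090 in Effector, 5082 and 4951 in Acute-7d and 4534 and 5107 in Acute-2d, so only Effector lay apart.

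*Stat2* and *Stat5a* had their highest values in Effector cells. *Stat2*, the interferon Stat, was at 1359 and 1271 in T_Dysf, 2268 and 2950 in Effector, 1563 and 1233 in Acute-7d and 1946 and 1253 in Acute-2d. The day 19 conditions overlapped one another, and the Effector libraries were above them. *Stat5a* was at 1268 and 1264 in T_Dysf, 1586 and 2321 in Effector, 1257 and 1323 in Acute-7d and 1204 and 1429 in Acute-2d, with the same pattern of overlap. *Stat5b* was at 2950 and 3153 in T_Dysf, 2758 and 3143 in Effector, 3273 and 3228 in Acute-7d and 3372 and 4137 in Acute-2d. Acute-2d lay above the others, and Effector and T_Dysf overlapped.

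**Figure D2:**
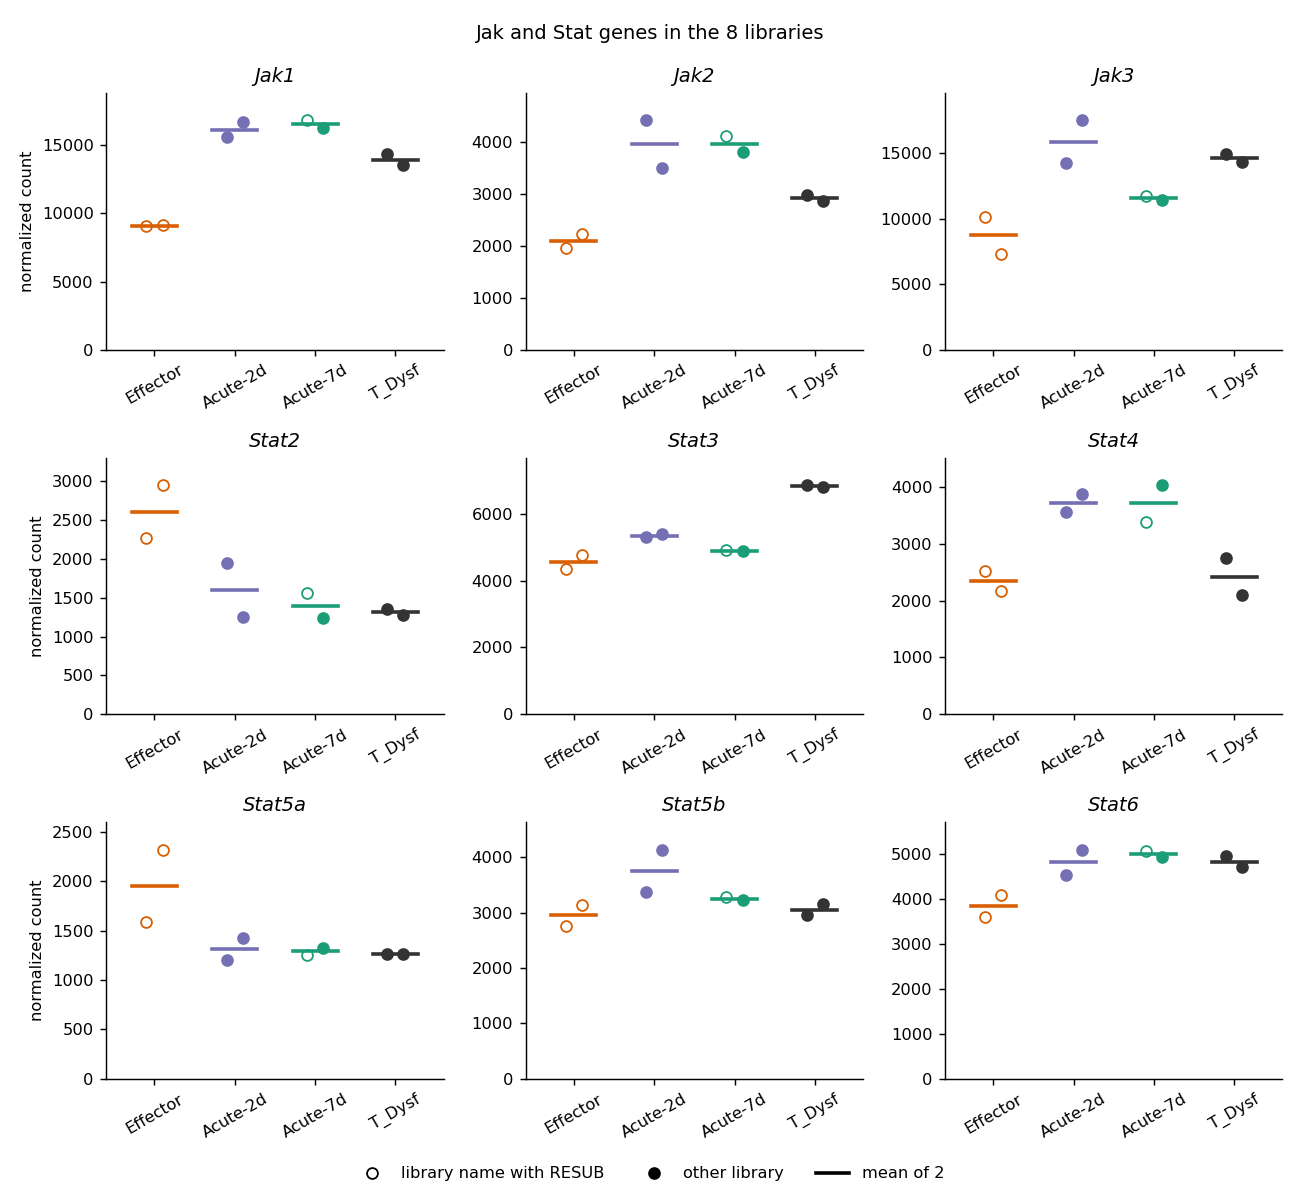
Normalized count (linear axes from 0) of the 9 genes in each library of the 4 conditions, with the mean of 2 libraries as a bar and open points for the RESUB libraries. *Stat3* was at 6802 and 6866 in T_Dysf and at most 5405 elsewhere, and *Jak1* was at 9095 and 9112 in Effector and at least 13531 elsewhere.

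Differences between conditions were tested with limma on log2(normalized count + 1), with p-values adjusted by the Benjamini-Hochberg method over all genes. A gene passed the test at an adjusted p under 0.05 and was a differentially expressed gene (DEG) if it also changed by at least 2-fold. An exact permutation test of 2 libraries against 2 cannot give a p below 0.333, so single genes were judged by the limma fit alone. None of the 9 genes was a DEG in any of the 6 comparisons, and the group means of a gene differed by at most 1.98-fold (*Stat2*, Effector over T_Dysf).

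T_Dysf cells had more *Stat3* than the rested Acute-7d cells. *Stat3* rose by 0.48 on the log2 scale (SE 0.0591, 95% interval 0.33 to 0.63, 1.40-fold, limma adjusted p = 0.0160), and it was the only 1 of the 9 genes that passed the test. Across all genes 9.21% passed it, 4.79% on the higher and 4.42% on the lower side, as did 17.8% of the 3171 genes as abundant as these 9. By limma 0 of the 9 were DEGs, against 5.57% of all genes, and 4 had an unadjusted p under 0.05, against 26.1%. The libraries of the 2 conditions did not overlap for 6 of the 9, against 54.8% of all genes. *Stat4* was 0.62 lower on the log2 scale (SE 0.174, limma adjusted p = 0.102), *Jak2* 0.43 lower (SE 0.133, limma adjusted p = 0.123) and *Jak1* 0.25 lower (SE 0.0734, limma adjusted p = 0.117), and none of them passed. *Stat5a*, *Stat5b*, *Stat6* and *Stat2* had intervals that included 0, with log2 differences between -0.09 and -0.03, of which *Stat2* turned with the RESUB term and without Acute-7d replicate 1 (0.09 in both) and *Stat5a* without Acute-7d replicate 2 (0.01), and that of *Jak3* was 0.34 (95% interval -0.15 to 0.82). The call for *Stat3* held in 11 of 16 alternative fits and was lost in each fit without 1 of the 4 libraries compared (limma adjusted p between 0.0538 and 0.0981) and with a term for the RESUB libraries (limma adjusted p = 0.0867), while its log2 change stayed between 0.41 and 0.49. The RESUB term and the fit without Acute-7d replicate 1 are the same contrast here, not separate checks. Among the libraries outside the RESUB set, T_Dysf was 1.40-fold above the 1 Acute-7d library for *Stat3* and 1.67-fold below it for *Stat4*. With genes under a maximum of 50 normalized counts left out, *Stat4* passed as well (limma adjusted p = 0.0339).

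Against Acute-2d, *Stat3* was again the only 1 of the 9 that passed. It was 0.35 higher in T_Dysf on the log2 scale (SE 0.0591, 1.28-fold, limma adjusted p = 0.0266), against 11.9% of all genes that passed, 5.85% on the higher side, and 21.9% of those as abundant. No gene of the 9 was a DEG by limma, against 7.35% of all genes, and 4 had an unadjusted p under 0.05, against 27.7%. The libraries did not overlap for 5 of the 9, against 54.3% of all genes. *Stat4* was 0.63 lower (95% interval -1.08 to -0.18, limma adjusted p = 0.0885) and *Jak2* 0.42 lower (95% interval -0.77 to -0.08, limma adjusted p = 0.119). The remaining 6 ranged from -0.29 (*Stat5b*) to 0.01 (*Stat6*), and 4 of them turned in sign in some fits. *Stat6* did so with equal 75th percentiles and without Acute-2d or T_Dysf replicate 1, *Stat2* without Acute-2d replicate 1 (0.07), and *Stat5a* (0.07) and *Jak3* (0.03) without Acute-2d replicate 2. With genes under a maximum of 50 normalized counts left out, *Stat4* passed here too (limma adjusted p = 0.0282). The call for *Stat3* held in 7 of 16 alternative fits. It was lost without any 1 of the Acute-2d, Acute-7d and T_Dysf libraries (limma adjusted p between 0.0652 and 0.131), with the 2 conditions alone (0.05001), with the replicate number as a block (0.0545) and with the RESUB term (0.0645). T_Dysf is shared between these comparisons, so they are not independent.

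T_Dysf cells differed from Effector cells in *Stat3* and *Jak1*, which were both higher in T_Dysf. *Stat3* was 0.58 higher on the log2 scale (SE 0.0591, 1.499-fold, limma adjusted p = 0.00835) and *Jak1* 0.61 higher (SE 0.0734, 1.53-fold, limma adjusted p = 0.0112). These 2 of 9 compare with 15.6% of all genes, 8.14% on the higher and 7.44% on the lower side, and with 30.2% of the genes as abundant, and 0 of 9 were DEGs by limma, against 9.22%. At an unadjusted p under 0.05 there were 7 of the 9, against 31.7% of all genes, and the libraries did not overlap for 7, against 56.4%. *Jak3* was 0.76 higher (SE 0.187, adjusted p = 0.0587 by limma), *Jak2* 0.48 higher (0.133, 0.0762) and *Stat6* 0.33 higher (0.0920, 0.0776). *Stat2* was 0.98 lower (0.264, 0.0735) and *Stat5a* 0.60 lower (0.196, 0.112). *Stat4* and *Stat5b* had differences of 0.04 and 0.05 with 95% intervals from -0.41 to 0.49 and from -0.26 to 0.36, and both turned in sign in some fits. Both calls held in 13 of 16 alternative fits. They were lost with the 2 conditions alone (limma adjusted p = 0.0776 for *Stat3* and 0.0848 for *Jak1*), with the RESUB term (0.121 and 0.142) and without T_Dysf replicate 1 (0.0582 and 0.0760). Without genes under a maximum of 50 normalized counts, 6 of the 9 passed, namely *Stat3*, *Jak1*, *Jak2*, *Jak3*, *Stat2* and *Stat5a*. *Stat6* joined *Stat3* and *Jak1* with equal 75th percentiles (limma adjusted p = 0.0423) and with equal totals (limma adjusted p = 0.0460). Without Effector replicate 1, 4 passed, *Stat3*, *Jak1*, *Jak3* and *Stat5a*.

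Effector cells had less *Jak1* and *Jak2* than either rested condition. Against Acute-2d, *Jak1* fell by 0.82 on the log2 scale (SE 0.0734, limma adjusted p = 0.00983), *Jak2* by 0.91 (SE 0.133, limma adjusted p = 0.01998) and *Jak3* by 0.87 (SE 0.187, limma adjusted p = 0.0423). These 3 of 9 stand beside 15.7% of all genes, 7.79% on the lower side, and 32.0% of those as abundant that passed. None was a DEG by limma, against 8.78% of all genes. All 9 had an unadjusted p under 0.05, against 31.2%, and the libraries of all 9 did not overlap, against 54.2%. *Stat2* (0.73) and *Stat5a* (0.55) were on the higher side and *Stat3*, *Stat4*, *Stat5b* and *Stat6* on the lower side, between -0.67 and -0.23 on the log2 scale, and none of these 6 passed. *Jak1* passed in 14 of 16 alternative fits, *Jak2* in 9 and *Jak3* in 5. All 3 were lost with the 2 conditions alone (limma adjusted p between 0.101 and 0.184) and with the RESUB term (between 0.103 and 0.296), and *Jak3* also with the replicate number as a block (0.0777). Leaving out 1 library lost *Jak2* for each Effector and T_Dysf library and for Acute-2d replicate 1 (limma adjusted p between 0.0518 and 0.0584), and *Jak3* for each library but Effector replicate 1 (between 0.0862 and 0.146). With equal totals *Jak3* was at 0.0552. *Stat3* and *Stat6* passed with equal 75th percentiles and with equal totals, *Stat2* and *Stat4* without genes under a maximum of 50, *Stat5a* without Effector replicate 1 and *Stat3* without Effector replicate 2.

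Against Acute-7d, *Jak1* was 0.86 lower in Effector (SE 0.0734, limma adjusted p = 0.0106) and *Jak2* 0.92 lower (SE 0.133, limma adjusted p = 0.0212), and these were the 2 of 9 that passed. Of all genes 14.9% passed, 7.70% on the higher and 7.16% on the lower side, as did 31.4% of those as abundant. By limma 0 of 9 were DEGs, against 8.06% of all genes, 6 had an unadjusted p under 0.05, against 30.4%, and the libraries did not overlap for 9, against 54.9%. *Jak3* was 0.42 lower (95% interval -0.91 to 0.06, limma adjusted p = 0.215). Acute-7d replicate 1 belongs to the RESUB set like both Effector libraries, and within that set the Effector mean was 1.85-fold below it for *Jak1* and 1.96-fold below it for *Jak2*. *Jak1* passed in 14 of 16 alternative fits and *Jak2* in 8. *Jak1* was lost with the 2 conditions alone (0.0967) and without Acute-7d replicate 1 (0.0572). *Jak2* was lost with the 2 conditions alone (0.0977), with the RESUB term (0.0701) and without any 1 of the Effector, Acute-7d and T_Dysf libraries (limma adjusted p between 0.0526 and 0.102). Without genes under a maximum of 50 normalized counts, *Stat2*, *Stat4*, *Stat5a* and *Stat6* joined the 2 kinases. *Stat6* also passed with equal 75th percentiles and equal totals, *Stat3* with equal 75th percentiles and *Stat5a* without Effector replicate 1.

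The rested conditions did not differ in any of the 9 genes by the test. Between Acute-7d and Acute-2d limma found 0 of 9 past the adjusted p and 0 DEGs, against 0.169% of all genes for both rules, and 0 of 9 at an unadjusted p under 0.05, against 7.31%. The libraries did not overlap for 3 genes, *Stat3*, *Stat5b* and *Jak3*, against 32.1% of all genes. The widest difference was that of *Jak3*, at -0.45 (95% interval -0.94 to 0.03), and the intervals of the other 8 lay between -0.85 and 0.51, so differences of that size are not excluded by these libraries.

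**Figure D3:**
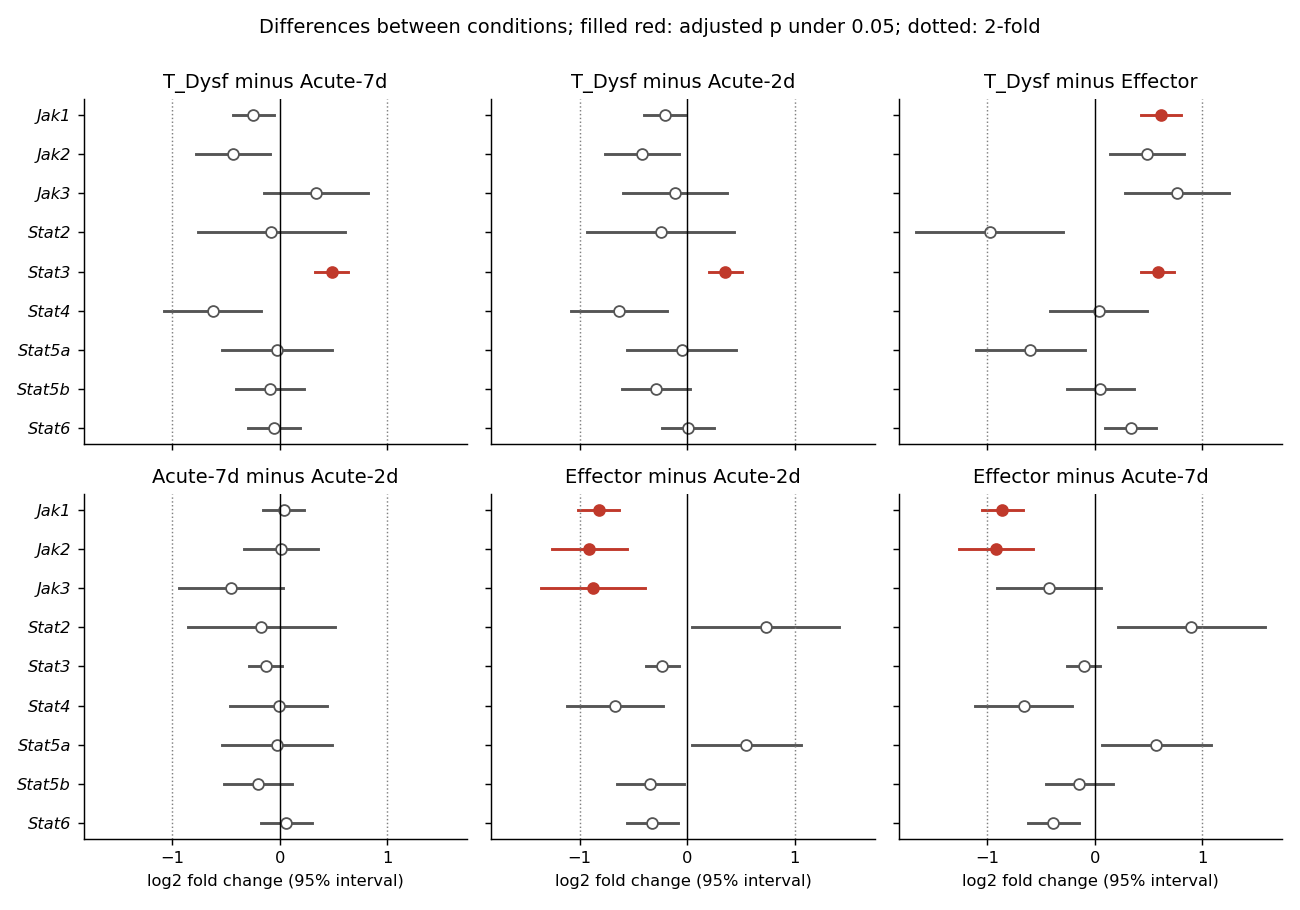
Log2 fold change with its 95% interval of the 9 genes in each of the 6 comparisons, first condition minus second, with dotted lines at a 2-fold change. Filled red points passed the adjusted p, which was *Stat3* in the 3 comparisons of T_Dysf, *Jak1* in the 3 comparisons of Effector, *Jak2* in 2 and *Jak3* in 1.

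Ratios within a library do not depend on its scaling, and 3 of them were chosen after their values were seen. *Stat3* over *Stat4* was 2.49 and 3.25 in T_Dysf, 1.72 and 2.21 in Effector, 1.49 and 1.39 in Acute-2d, and 1.45 and 1.21 in Acute-7d. Both T_Dysf libraries were above all others. *Stat5a* over *Stat5b* was 0.575 and 0.739 in Effector and between 0.345 and 0.430 in the other 6 libraries, subject to the shared reads described above. *Jak3* over *Jak1* was 0.697 and 0.701 in Acute-7d and at least 0.803 elsewhere. The summed count of the 3 kinases was 31470 ± 1088 (SD, n = 2) in T_Dysf, 19923 ± 1791 in Effector, 32023 ± 866 in Acute-7d and 35937 ± 2407 in Acute-2d. The summed count of the 6 Stats was 19725 ± 602 in T_Dysf, 18270 ± 1668 in Effector, 19564 ± 124 in Acute-7d and 20574 ± 917 in Acute-2d. The sum of the kinases thus set Effector apart from the other conditions, and the sum of the Stats did not.

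**Figure D4:**
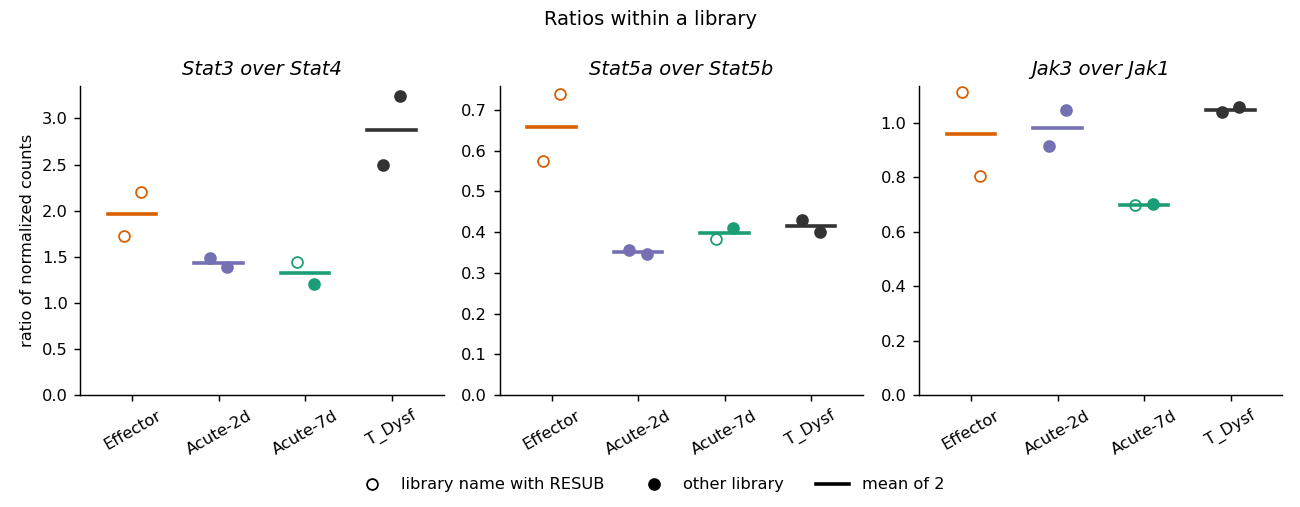
Ratio of normalized counts within each library for *Stat3* over *Stat4*, *Stat5a* over *Stat5b* and *Jak3* over *Jak1*, with the mean of 2 as a bar and open points for the RESUB libraries. *Stat3* over *Stat4* was highest in T_Dysf, at 2.49 and 3.25, and *Stat5a* over *Stat5b* in Effector, at 0.575 and 0.739.

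The surrounding pathway was described with 10 lists of receptors, ligands, inhibitors, partners and known targets, 122 genes of the table in all, some in more than 1 list. The lists were chosen with earlier results of these data known. Between T_Dysf and Acute-7d, 16 of the 122 genes were DEGs, against the 5.57% of all genes given above. The counts of list genes that rose or fell are those that passed the adjusted p, which 4.79% of all genes did on the higher and 4.42% on the lower side for T_Dysf against Acute-7d, and 8.14% and 7.44% for T_Dysf against Effector.

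Among receptors that feed these kinases, those of inflammatory cytokines and interferons that passed were lower in T_Dysf, and those of the gamma chain family went both ways. Of the 8 receptor chains of the gamma chain family, 2 rose (*Il2rb* and *Il21r*) and 2 fell (*Il4ra* and *Il7r*, the IL-7 receptor chain) between T_Dysf and Acute-7d. The list's median log2 change was -0.12 against 0.00 for all genes. It was 0.14 over the 7 chains with a mean of at least 50 normalized counts. *Il4ra*, the IL-4 receptor chain upstream of *Stat6*, was at 3098 and 3207 normalized counts in T_Dysf and at 9968 and 8366 in Acute-7d, and fell by 1.53 (SE 0.109, limma adjusted p = 0.00485). Effector was also below Acute-7d for *Il4ra*, at 3869 and 4332. Of 16 inflammatory and interferon receptor chains none rose and 4 fell, with a median of -0.48. *Ifngr1*, the ligand-binding chain for interferon gamma, was at 6304 and 6002 in T_Dysf and at 14966 and 14749 in Acute-7d, and fell by 1.27 (SE 0.0830, limma adjusted p = 0.00416). *Il10ra*, the chain that binds IL-10, was at 1290 and 1469 in T_Dysf and at 3129 and 2491 in Acute-7d, and fell by 1.02 (SE 0.139, limma adjusted p = 0.0203).

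Of 16 ligands, 2 rose and 1 fell between T_Dysf and Acute-7d. Their median was 0.41, but -1.86 over the 5 ligands with a mean of at least 50 normalized counts. *Il10* was at 615 and 637 normalized counts in T_Dysf and at 2.23 and 0.00 in Acute-7d, no more than 3 reads, so it was at least 187-fold higher in T_Dysf (limma adjusted p = 0.00579). In the other 4 libraries it was at most 1.003. *Ifng*, whose product signals through Jak1 and Jak2, was at 3441 and 3230 in T_Dysf and 859 and 556 in Acute-7d, and rose by 2.27 (SE 0.313, limma adjusted p = 0.0208). This rise is of RNA. The study reported a loss of Ifnγ protein output in T_Dysf cells after peptide rechallenge and named its discordance with the RNA. T_Dysf cells were collected under stimulation and Acute-7d cells at rest, and the part of that in the rise was not tested. *Ebi3*, a subunit of IL-27, was at 48.3 and 62.1 in T_Dysf and 219.6 and 184.6 in Acute-7d, and fell by 1.86 (SE 0.289, limma adjusted p = 0.0276).

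Among the inhibitors of the pathway, those that passed in T_Dysf were phosphatases against Acute-7d and mainly Socs family members against Effector. Of 19 inhibitors, 2 rose against Acute-7d (*Ptpn1* and *Ptpn6*) and none fell, while against Effector 4 rose (*Cish*, *Socs2*, *Socs5* and *Pias3*) and 1 fell (*Usp18*). The difference between these counts was not tested. *Ptpn6*, a phosphatase that removes phosphate from Jaks, was at 6659 and 6961 in T_Dysf and 2824 and 3545 in Acute-7d, and rose by 1.11 (SE 0.127, limma adjusted p = 0.0139). Its level in Effector was higher still, at 8381 and 8011. *Cish*, an inhibitor induced by Stat5, was at 16245 and 21105 in T_Dysf and 3820 and 6678 in Effector, and rose by 1.87 (SE 0.333, limma adjusted p = 0.0268). *Socs2* was at 3595 and 3360 in T_Dysf and 1065 and 1002 in Effector, and rose by 1.75 (SE 0.276, limma adjusted p = 0.0202), and *Socs5* was at 217.5 and 302.5 against 55.7 and 92.3 (1.82, SE 0.294, limma adjusted p = 0.0215). Effector was the lowest condition for each of these genes. In the Acute libraries *Cish* was between 12368 and 17295, *Socs2* between 1196 and 2687, and *Socs5* between 181.4 and 213.8. *Cish* stayed a DEG against Effector in 7 of 16 alternative fits. *Usp18*, an inhibitor of interferon signalling that interferon itself induces, was at 39.7 and 20.5 in T_Dysf and 408 and 981 in Effector, and fell by 4.42 (SE 0.521, limma adjusted p = 0.0111). Of 11 partners and adaptors none passed against Acute-7d, and *Sh2b1* and *Ep300* rose against Effector.

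The target lists of Stat3 and Stat4 held genes that passed in both directions. Of 12 targets of Stat3, 1 rose (*Il10*) and 2 fell (*Il6ra* and *Rora*) between T_Dysf and Acute-7d, with a median of 0.23. *Rora* was at 565 and 554 in T_Dysf and 1860 and 1374 in Acute-7d, and fell by 1.51 (SE 0.248, limma adjusted p = 0.0310). Its level in Effector was lower still, at 350 and 451. Of 15 targets of Stat5, none rose and 4 fell, with a median of -0.39, among them the growth regulator *Myc* (4537 and 4228 in T_Dysf, 17721 and 11335 in Acute-7d, -1.69, SE 0.217, limma adjusted p = 0.0176), the kinase *Pim1* (-1.45, SE 0.197) and the cyclin *Ccnd2* (-1.12, SE 0.152). Effector was also below Acute-7d for *Myc*, at 5540 and 6009. Among targets of Stat4, *Ifng* rose, as given above, and the IL-18 receptor chains *Il18r1* (-1.42, SE 0.142) and *Il18rap* (-1.56, SE 0.171) fell. Of 8 targets of Stat6 only *Il4ra* passed, and the median was -1.43.

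Against Effector, 3 targets of Stat3 rose in T_Dysf, *Il10*, *Fos* (3.09, SE 0.355) and *Maf* (2.24, SE 0.510), and *Il6ra* fell. *Fos* was at 722 and 879 in T_Dysf and 110.6 and 77.2 in Effector, and *Maf* at 329 and 304 against 55.7 and 78.2. Both were lowest in Effector. *Fos* was at 688 and 878 in Acute-2d and 404 and 221 in Acute-7d, and *Maf* at 473 and 236 and at 727 and 332. *Maf* passed narrowly against Effector (limma adjusted p = 0.0486) and stayed a DEG in 4 of 16 alternative fits. Among Stat5 targets *Il2ra*, the inducible IL-2 receptor chain, fell by 1.52 (2945 and 2976 in T_Dysf, 6400 and 11200 in Effector, SE 0.263, limma adjusted p = 0.0253), as did *Tnfrsf4* (by 1.61, SE 0.261), *Ccnd2* (by 1.03, SE 0.152), and the survival gene *Bcl2l1* (by 0.99), while *Cish*, *Socs2* and the survival gene *Mcl1* (0.70) rose. *Ifng*, *Ebi3*, *Il10ra*, *Il18r1* and *Il18rap* passed against Effector in the same directions as against Acute-7d, with T_Dysf shared between both comparisons. *Il6st*, the shared chain of the IL-6 family, fell by 1.6001 (385.8 and 421.7 in T_Dysf, 1024 and 1465 in Effector, SE 0.182), and the Stat6 target *Ccr4* by 3.17 (SE 0.498).

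The interferon-stimulated targets of Stat2 were the list with the widest difference from Effector. Of 20 genes none rose and 17 fell in T_Dysf against Effector, 16 of them DEGs, with a median log2 change of -2.53, where the share of all genes that passed on the lower side was the 7.44% given above. *Usp18* is also in this list. *Oasl1* was at 3.45 and 3.56 normalized counts in T_Dysf, just above 3 reads, and at 162.7 and 219.7 in Effector, and fell by 5.40 (SE 0.295, limma adjusted p = 0.00229). *Oasl2* was at 6.90 and 3.56 in T_Dysf and 201.0 and 898 in Effector, and *Ifi44* at 8.63 and 11.6 against 125.2 and 478. Replicate 2 of Effector was the higher one for each of these and for *Stat2*. Against Acute-7d 1 of the 20 fell (*Oasl1*, at 24.5 and 23.2 in Acute-7d, by 2.47, SE 0.295, limma adjusted p = 0.0153), with a median of -0.73, and between Effector and Acute-7d 11 rose and none fell, with a median of 1.87. *Stat2* itself did not pass in any of these 3 comparisons. Both Effector libraries belong to the RESUB set, and the part of that set in these differences was not tested apart from the term below.

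Of the 15 list genes that the naming rule took for T_Dysf against Acute-7d, 5 stayed DEGs with a term for the RESUB libraries, 5 without Acute-7d replicate 1, 8 without Acute-7d replicate 2, 3 without T_Dysf replicate 1 and 7 without T_Dysf replicate 2. *Il4ra*, *Ifngr1* and *Il10* stayed DEGs in all 16 alternative fits. Of the 21 it took against Effector, 2 stayed DEGs with the RESUB term, 3 with the 2 conditions alone, 3 without T_Dysf replicate 1 and 9 without T_Dysf replicate 2, and *Il10* and *Oasl1* stayed DEGs in all 16. No gene of either set changed direction in any of them. For T_Dysf against Acute-7d, the RESUB term gave the log2 changes of the fit without Acute-7d replicate 1 (-1.41 for *Il4ra* in both). Those fits are therefore not separate checks, and against Effector the term rests on the Acute-7d pair.

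**Figure D5:**
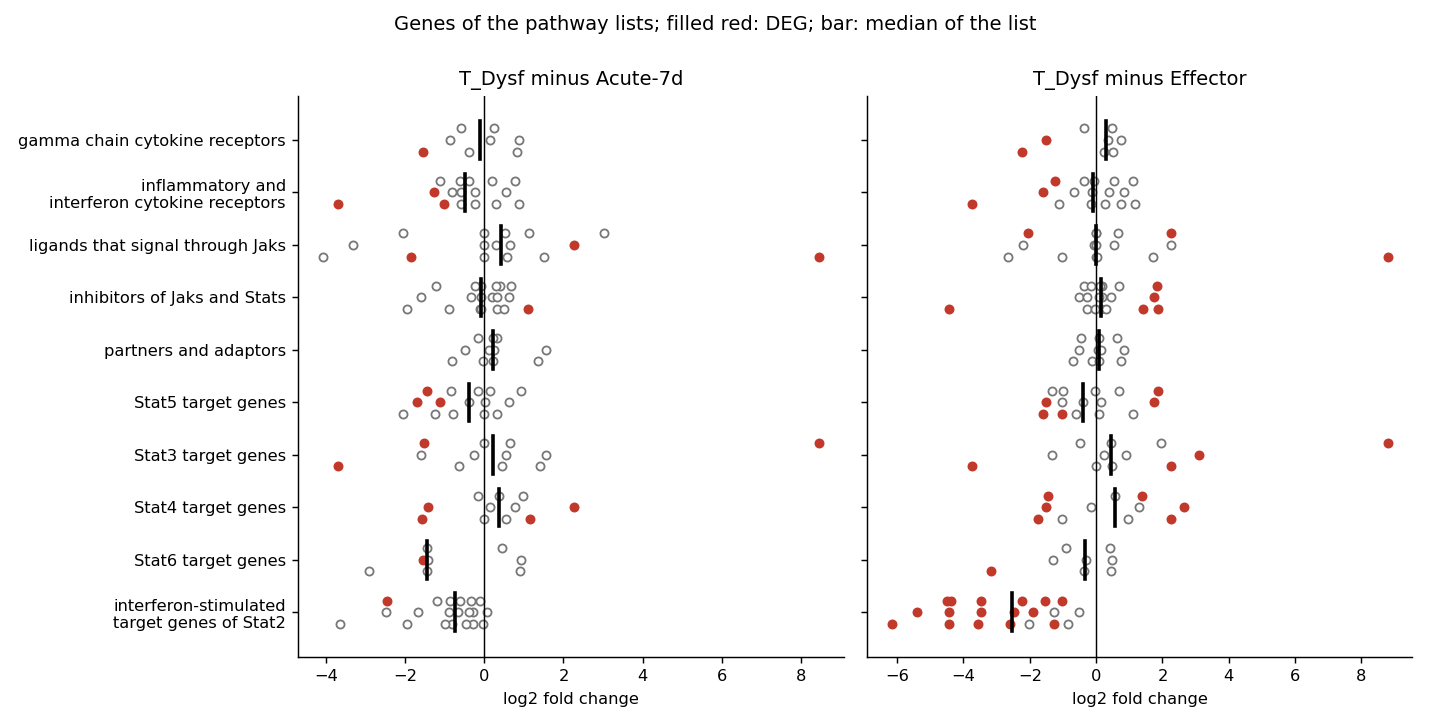
Log2 fold change of the genes of the 10 pathway lists in T_Dysf minus Acute-7d and T_Dysf minus Effector, with the median of each list as a bar and DEGs in filled red. The interferon-stimulated targets had a median of -2.53 against Effector and -0.73 against Acute-7d, and the point at the far right is *Il10*.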

How the data were processed

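RNA-Seq was done on poly(A) libraries of 8 samples, 2 for each of the conditions Effector, Acute-2d, Acute-7d and T_Dysf, grouped by their GEO labels. The signal values analysed are those the authors deposited, read counts per gene divided by DESeq2 size factors after alignment with STAR to mm10 and counting on RefSeq transcripts in Partek Flow. They are not raw counts, so no count model was run. Between 53.0% and 73.7% of the values considered per library were whole multiples of 1 read (within 0.02 reads). That is too few to recover exact reads for every gene. Values without reads and values of highly covered genes, the members among them, were left out of these shares. By the estimated worth of 1 read, the least covered member had about 1127 reads in a library.

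limma 3.58.1 (R 4.3.3; lmFit, eBayes with trend) was fitted to log2(normalized count + 1) of all 24303 genes, with 4 group means over 8 libraries, and two-sided p-values were adjusted by Benjamini-Hochberg. Fold changes are on the scale with the pseudocount of 1. The script was tested on simulated data. To check for pairing, the log2 difference of replicate 2 minus replicate 1 within each condition was correlated between conditions. The correlations were between -0.199 and 0.197 over 12028 genes, so numbers were not taken as pairs. The genes and lists were chosen with earlier results of these data known. List genes named were DEGs with a mean of at least 50 normalized counts, at most 4 in each direction for T_Dysf against Acute-7d and 3 for T_Dysf against Effector, and others that spell out a count were named after their values were seen. Genes of like pattern were to be named only for members that were DEGs, and there were none. Alternatives changed the pseudocount, the genes fitted, the scaling, the libraries, the covariates and the call rule. A list of 2 other family genes and 1 list gene are not reported here.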

Additional observations from a re-analysis of the deposited data

How the results depend on the processing

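None of the 9 genes was a DEG in the main fit. With no minimum fold change, 1 was called between T_Dysf and Acute-7d, 1 between T_Dysf and Acute-2d, 2 between T_Dysf and Effector, 3 between Effector and Acute-2d and 2 between Effector and Acute-7d. With equal 75th percentiles *Jak2* passed the 2-fold limit, so 1 was called between Effector and each of Acute-2d and Acute-7d, and leaving out 1 library gave 0 to 1 between Effector and Acute-2d. The counts past the adjusted p alone, given with the results, and the list genes under each setting were added after the data had been seen. Passed log2 changes of the 9 genes kept their sign throughout, while changes near 0 turned.

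Of the 122 list genes, 16 were DEGs between T_Dysf and Acute-7d, and 29 with genes under a maximum of 50 left out, 8 with the 2 conditions alone, 7 with the RESUB term, 32 with unadjusted p and 3 to 18 without 1 library. For T_Dysf and Acute-2d the 25 became 38 with unadjusted p and 5 to 27 without 1 library. For T_Dysf and Effector the 37 became 5 with the 2 conditions alone, 4 with the RESUB term and 4 to 40 without 1 library. For Acute-7d and Acute-2d limma found 0, and 6 with unadjusted p and 0 to 1 without 1 library. For Effector and Acute-2d the 26 became 1 with the 2 conditions alone, 4 with the RESUB term and 8 to 21 without 1 library. For Effector and Acute-7d the 24 became 0 with the 2 conditions alone, 8 with the RESUB term, 37 with no minimum fold change, 38 with unadjusted p and 3 to 19 without 1 library. The lowest count came without T_Dysf replicate 1 for the 3 comparisons of T_Dysf, without either T_Dysf library for Effector against Acute-2d, and without Acute-7d replicate 1 for Effector against Acute-7d. The cause was not tested, except that fits of fewer libraries leave fewer degrees of freedom.

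With the replicate number as a block, 12, 20, 30, 0, 17 and 16 list genes were DEGs in the same order of comparisons, and 0 of the 9 genes in each. Of all genes the block left 891 of 1353 DEGs between T_Dysf and Acute-7d. The numbers share no label of a mouse or day. Of the 6 correlations between conditions of the difference between replicates, 2 were over 0.1.

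Counts over all genes moved by more than 1.5 times as well. The RESUB term gave 541 of 1353 for T_Dysf and Acute-7d, 386 of 2241 for T_Dysf and Effector, 350 of 2135 for Effector and Acute-2d, and 808 of 1958 for Effector and Acute-7d. The 2 conditions alone gave 465, 235 and 155 for the last 3 of these. The 41 DEGs between Acute-7d and Acute-2d ranged from 1 (maximum of at least 50) over 4 (pseudocount of 10), 81 (pseudocount of 0.1), 147 (2 conditions alone) and 168 (RESUB term) to 910 (unadjusted p). Without a minimum fold change 2238, 2882, 3787, 3821 and 3613 genes were called in the other comparisons, and with unadjusted p 3184, 3517, 4060, 3705 and 3515. Leaving out 1 library gave 422 to 1534, 656 to 1867, 585 to 2484, 553 to 2363 and 378 to 2156, and 61 to 376 for Acute-7d and Acute-2d.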
